A study of Mus musculus with 32 samples.

Results

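The genes described here are 34 cell cycle and DNA replication genes, followed in mouse liver under a steady and a shifting light schedule. They were chosen by name out of 20145 genes with a symbol on the array, with earlier results of these arrays known. They cover replication licensing and the fork (9 genes), nucleotide supply (4), cyclins and their kinase (6), transcription factors (2) and mitosis and chromatin (13). For each gene the probes carrying its RefSeq identifier were found, and the brightest probe stood for it. Of the 34 genes, 27 entered the tests.

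All mice were male, wild-type C57BL/6 and singly housed, and total liver RNA of each mouse was hybridised to 1 single-colour array. The 16 mice on the steady schedule (NS) had alternating 12 h periods of light and darkness. The 16 mice with chronic jet lag (CJ) were, from 4 weeks of age on, switched back and forth between rooms in which the lights came on 8 h apart. Sampling took place at ZT2, ZT10 and ZT18 (ZT, zeitgeber time, counts hours from lights on) when the mice were 12 or 30 weeks old, with 2 mice per group at ZT2 and 3 mice per group at ZT10 and ZT18. The sources used here do not give the time between the last room switch and sampling, which limits what ZT means under jet lag.

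A dividing cell passes from the G1 phase into DNA synthesis when cyclin E with its kinase releases E2F transcription factors, which switch on genes for licensing, the replication fork and the supply of deoxynucleotides. Later, cyclins A and B with CDK1 drive mitosis, and their genes are controlled largely through CHR and CCAAT elements in their promoters. Adult hepatocytes rarely divide, but the liver re-enters the cycle after injury, and the circadian clock is known to act on this machinery, for example through the mitotic brake Wee1.

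Because these promoter classes are how the genes are usually grouped, the promoters of 4 members on which the results turn are shown. They are the 250 bases before the transcription start, from RefSeq on build GRCm38.p6, written 5′ to 3′ on the strand of the gene, with motif matches on either strand in capitals. The E2F letters searched were TTTCCCGC, TTTCGCGC, TTTGCCGC and TTTGGCGC. The letters of the CHR element were TTTGAA, with the variant form TTCGAA allowed. The CCAAT box was searched by those letters. The E-box was searched as CACGTG. The Ccne1 window lies at chr7:38107491-38107740 on the minus strand, Rrm2 at chr12:24708004-24708253 on the plus strand, Mcm5 at chr8:75109259-75109508 on the plus strand and Mki67 at chr7:135716380-135716629 on the minus strand.
Ccne1: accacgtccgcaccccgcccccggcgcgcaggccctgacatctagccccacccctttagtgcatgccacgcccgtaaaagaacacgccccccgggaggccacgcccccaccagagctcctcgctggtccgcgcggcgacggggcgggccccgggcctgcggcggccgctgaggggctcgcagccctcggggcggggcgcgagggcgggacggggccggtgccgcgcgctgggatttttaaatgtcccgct
Rrm2: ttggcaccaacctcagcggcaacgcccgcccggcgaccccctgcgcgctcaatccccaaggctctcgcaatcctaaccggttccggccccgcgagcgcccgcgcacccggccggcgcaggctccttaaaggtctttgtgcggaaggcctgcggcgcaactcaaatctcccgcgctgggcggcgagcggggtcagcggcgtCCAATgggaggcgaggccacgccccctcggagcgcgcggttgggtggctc
Mcm5: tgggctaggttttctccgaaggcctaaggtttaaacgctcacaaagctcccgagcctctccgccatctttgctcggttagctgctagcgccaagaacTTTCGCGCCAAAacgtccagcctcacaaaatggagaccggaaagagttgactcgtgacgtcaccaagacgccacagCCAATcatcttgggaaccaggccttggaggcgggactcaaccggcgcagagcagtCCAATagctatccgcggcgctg
Mki67: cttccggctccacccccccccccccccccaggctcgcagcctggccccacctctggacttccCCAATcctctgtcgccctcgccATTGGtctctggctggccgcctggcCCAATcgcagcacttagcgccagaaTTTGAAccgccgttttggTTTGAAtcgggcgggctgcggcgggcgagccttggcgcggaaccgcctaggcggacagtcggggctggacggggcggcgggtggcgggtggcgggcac
The Ccne1 sequence holds none of these letters, Rrm2 holds 1 CCAAT box, Mcm5 holds 2 overlapping E2F matches and 2 CCAAT boxes, and Mki67 holds 2 CHR matches and 3 CCAAT boxes.

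Over the full window of 300 bases (250 before and 50 after the start), 28 of the 34 genes had a promoter entry. Ccna2, Ccne2, Foxm1, Aurkb, Tpx2 and Mcm4 were not matched. E2F letters were found in 7 of the 28 genes (25.0%, against 2.6% of 27025 genes), namely Cdc6, Cdt1, Cdk1, Mcm3, Mcm5, Mcm6 and Mcm7. CHR letters were in 13 (46.4%, against 21.7%), mostly mitotic genes such as Bub1, Bub1b, Plk1, Kif11, Top2a and Mki67. CCAAT was in 20 (71.4%, against 41.1%). The E-box letters through which clock factors bind were in 1 gene, Tyms (3.6%, against 8.1%). A match to these letters is a description of the sequence and does not show binding.

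The DNA synthesis genes were measurable in all livers, whereas many mitotic genes lay at the background. Well above background on all 32 arrays were 21 of the 34 genes, 6 were so on some arrays and 7 on none through their brightest probe. A dimmer probe of 1 of the 7, Cdc6, was well above background on 2 arrays. By role, 8 of 9 licensing and fork genes and 4 of 4 nucleotide genes were measurable on every array, against 2 of 6 cyclin and kinase genes and 5 of 13 genes of mitosis and chromatin. The genes not well above background on any array through their brightest probe were Cdc6, which loads the helicase, the cyclin Ccne2, the DNA untangling enzyme Top2a, the mitotic kinases Aurkb, Bub1 and Bub1b, and the spindle motor Kif11. No difference between groups is given for these 7. Cyclin A (Ccna2) was well above background on 25 arrays, cyclin B1 (Ccnb1) on 20, Cdk1 on 31, the mitotic kinase Plk1 on 29, the spindle assembly factor Tpx2 on 30 and the spindle protein Nusap1 on 11.

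**Figure D1:**
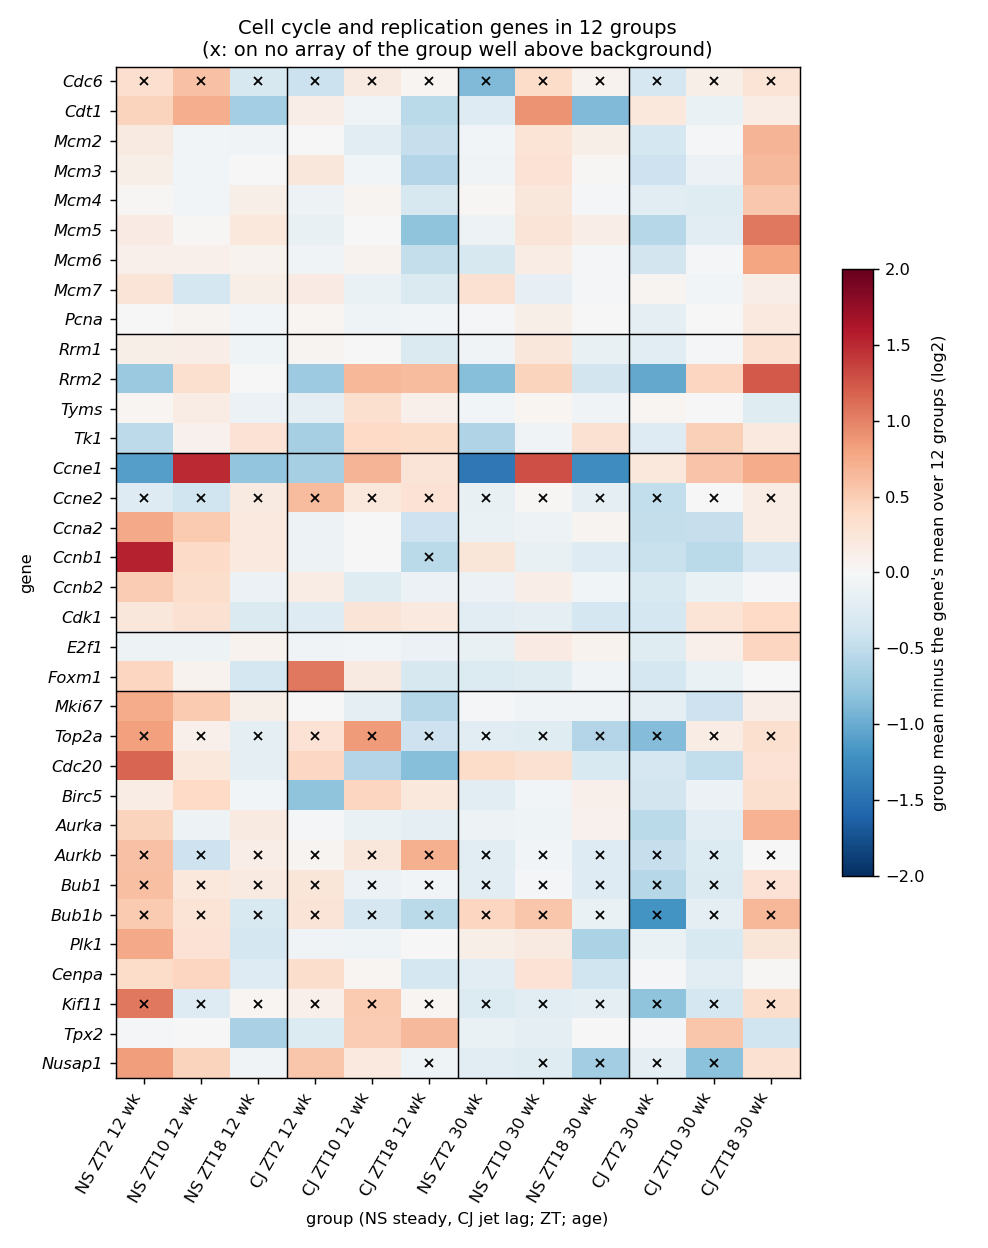
Heat map of the 34 genes (rows, grouped by role) in the 12 groups (columns), coloured by the group mean minus the mean of that gene over the 12 groups on the log2 scale, with a cross where no array of the group was well above background. Among rows without crosses the widest spread of colour is in Ccne1, followed by Rrm2, and 7 rows carry crosses in all 12 groups.

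Levels below are log2 of the processed signal relative to the 75th percentile of the array, so values of one gene may be set against each other across mice but not against another gene. Differences, standard errors (SE) and adjusted p values come from a limma fit of the 12 groups with the slide as a random block, and fitted differences can therefore depart slightly from differences of plain means. A gene was called at a Benjamini-Hochberg adjusted p under 0.05 over all 23109 genes tested, and each percentage given beside a count is the share of those genes called in the same way. For tests over 3 times of day the size is the range between the highest and the lowest fitted group mean. Where the ZT2 mice were left out, these tests compare only ZT10 with ZT18.

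The labelled tissue was borne out by 10 of 10 hepatocyte markers well above background on all arrays, with a mean marker level of 8.52 to 9.08. Markers of tissue next to the liver varied from mouse to mouse. The mean of 12 pancreatic acinar markers ran from -3.59 to 4.52 and exceeded 1 on 10 arrays, and the mean of 10 skeletal muscle markers ran from -4.28 to 3.40. Leaving out those acinar-rich arrays left a single mouse in the steady ZT18 group at 12 weeks. The same held for the jet-lagged groups at ZT2 and ZT10 at 12 weeks and at ZT10 at 30 weeks. A list of 5 clock genes checked the schedules, and all 5 were called for time of day in steady mice at both ages, against 3 and 2 under jet lag. Under jet lag Dbp (0.76 and 0.70) and Arntl (1.72 and 0.87) were called at neither age, Nr1d1 at 12 weeks (2.51, adjusted p = 0.025) but not at 30 weeks (1.90), and Per2 and Wee1 at both (for Per2 3.25 and 1.71, adjusted p = 1.18e-05 and 0.00631). In bulk liver RNA, fewer cells of a type and less RNA per cell cannot be told apart.

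In steady mice 6 genes varied with time of day at both ages, 5 of them genes of cyclin E, licensing, the fork or nucleotide supply and 1, Cenpa, of mitosis and chromatin. At 12 weeks 6 of the 27 tested genes were called (Ccne1, Cdt1, Tk1, Rrm2, Mcm7 and Cenpa; 17.4% of all genes), and at 30 weeks 7 were (the same 6 and Rrm1; 11.2% of all genes). The first share is near that of all genes, so a daily change was not more common in these genes at 12 weeks. Of the 21 genes measurable on all arrays, 13 had their highest mean at ZT2, 6 at ZT10 and 2 at ZT18 at 12 weeks (61.9%, 28.6% and 9.5%), against 29.5%, 28.7% and 41.8% of the 17543 genes measurable on all arrays. At 30 weeks 16 had their highest mean at ZT10, 4 at ZT18 and 1 at ZT2 (76.2%, 19.0% and 4.8%), against 34.9%, 35.2% and 30.0%. The hour of the highest mean thus differed between ages for much of the set, and most of these hours belong to genes without a called daily change.

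Markers of other cells varied with time of day in the same mice. Muscle marker means were highest at ZT18 in steady mice at 12 weeks (0.49 to 1.29, against -4.28 to -1.58 at the other times) and at 30 weeks (0.55 to 2.12, against -4.07 to 0.15). With acinar and muscle covariates the steady calls of Ccne1, Cdt1 and Tk1 were kept at both ages, those of Cenpa were lost at both, Rrm2 was lost at 12 weeks (0.99, adjusted p = 0.0743) and Mcm7 at 30 weeks (0.40, adjusted p = 0.0751). Erythroid means at 12 weeks were 0.30 to 0.57 at ZT2, 0.72 to 1.01 at ZT10 and 1.01 to 1.23 at ZT18, with 4 of 7 tested markers called, and their part in the results was not tested.

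Ccne1, which encodes cyclin E1, the activator of CDK2 at the start of DNA synthesis, had the widest called daily range in steady mice among the 34 genes. In steady mice at 12 weeks its level was -1.21 and -1.04 at ZT2, 1.37, 1.71 and 1.34 at ZT10, and -1.28, -0.70 and -0.48 at ZT18. At 30 weeks it was -1.45 and -1.48 at ZT2, 1.90, 1.10 and 0.81 at ZT10, and -1.37, -1.31 and -1.09 at ZT18. Every ZT10 mouse lay above every ZT2 and ZT18 mouse of its age. The range was 2.47 (5.56-fold, adjusted p = 3.93e-06) at 12 weeks and 2.73 (6.65-fold, adjusted p = 2.19e-06) at 30 weeks.

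Under jet lag the Ccne1 means of the 3 sampled times lay closer together. With these times a flattened peak cannot be told from one that fell between them. Jet-lagged mice at 12 weeks had Ccne1 levels of -0.42 and -0.94 at ZT2, 1.14, 0.58 and 0.24 at ZT10, and 0.48, 0.22 and -0.02 at ZT18. At 30 weeks the levels were 0.77 and -0.41 at ZT2, 0.47, 0.77 and 0.41 at ZT10, and 0.61, 0.91 and 0.64 at ZT18. The 12-week mice still varied with time of day (range 1.54, adjusted p = 0.0102), with ZT10 and ZT18 overlapping, whereas at 30 weeks the range was 0.46 (adjusted p = 0.708) and all 3 times overlapped. Schedule and time of day interacted for Ccne1 at 12 weeks (range of the difference 1.87, adjusted p = 0.0344) and at 30 weeks (2.70, adjusted p = 0.00144).

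Ccne1 was higher in jet-lagged livers in 3 of the 4 comparisons outside ZT10. At ZT18 Ccne1 rose by 1.14 ± 0.28 (SE, n = 3 per group, adjusted p = 0.0257) at 12 weeks and by 1.96 ± 0.28 (3.90-fold, n = 3, adjusted p = 0.000368) at 30 weeks, and at ZT2 by 1.70 ± 0.34 (n = 2, adjusted p = 0.0122) at 30 weeks. In each of these comparisons the schedules did not overlap. At ZT2 at 12 weeks the difference was 0.19 ± 0.34 (adjusted p = 0.874). At ZT10 the difference was -0.74 ± 0.28 at both ages and did not pass (adjusted p = 0.171 and 0.242). Over the mean of the 3 times at 30 weeks Ccne1 rose by 0.97 ± 0.16 (1.96-fold, n = 8, adjusted p = 0.000803).

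These Ccne1 results differ in how firmly they stand. The ZT18 call at 30 weeks and both steady time-of-day calls were kept in every alternative run. The call at ZT2 at 30 weeks rests on 1.70 from 2 mice per group, and gave 0.99 without jet-lagged mouse 1 and 2.41 without mouse 2. It was lost with the mean of all probes (1.31, adjusted p = 0.115) and with the slide as a fixed block (1.76, adjusted p = 0.0659). Without the 10 acinar-rich arrays, none of which belongs to these groups, the difference was 1.74 and was no longer called. The ZT18 call at 12 weeks was lost in 7 of 13 alternatives, for example with acinar and muscle marker means as covariates (1.02, adjusted p = 0.149). Without the acinar-rich arrays, which left a single steady mouse in that comparison, the difference was 0.97. The 12-week interaction was lost with those covariates (1.57, adjusted p = 0.403). Without the acinar-rich arrays the interactions were 1.14 at 12 weeks and 2.52 at 30 weeks, and neither was called. That fit left a single jet-lagged mouse at ZT10 at each age. The rise over the 3 times at 30 weeks was 0.62 and not called with the mean of all probes (adjusted p = 0.0544), and 0.61 without the ZT2 mice (adjusted p = 0.0401). The jet-lag time-of-day call at 12 weeks gave 0.33 without the ZT2 mice (adjusted p = 0.88). A dimmer Ccne1 probe was well above background on 3 of 32 arrays. At ZT18 it gave 0.05 at 12 weeks (adjusted p = 0.973) and 0.54 at 30 weeks (adjusted p = 0.658). Its difference at ZT10 at 12 weeks was -1.98 (adjusted p = 0.0341). The steady ranges of this probe were 2.54 at 12 weeks (adjusted p = 0.00122) and 1.3 at 30 weeks (adjusted p = 0.174).

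Cdt1, which brings the MCM helicase to replication origins, was also highest at ZT10 in steady mice, and at 30 weeks its daily course differed under jet lag. Steady mice at 12 weeks had levels of 1.54 and 1.10 at ZT2, 1.31, 2.02 and 1.49 at ZT10, and 0.05, 0.25 and 0.26 at ZT18 (range 1.38, adjusted p = 8.2e-05). At 30 weeks they had 0.51 and 0.73 at ZT2, 2.13, 1.32 and 1.90 at ZT10, and -0.14, -0.26 and 0.36 at ZT18 (range 1.77, adjusted p = 1.47e-05). ZT18 was the lowest time at both ages, without overlap with ZT10.

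In jet-lagged mice at 30 weeks Cdt1 was 1.09 and 1.06 at ZT2, 0.77, 0.77 and 0.72 at ZT10, and 0.97, 1.27 and 0.86 at ZT18. These values sit between the steady ZT10 and ZT18 mice. Cdt1 fell at ZT10 by 1.05 ± 0.20 on the log2 scale (n = 3, adjusted p = 0.0173) and rose at ZT18 by 1.07 ± 0.20 (n = 3, adjusted p = 0.00346), and the schedules did not overlap at either time. The interaction was 2.11 (adjusted p = 0.0011) and was called in every alternative run. At 12 weeks the jet-lagged levels were 0.95 and 1.06 at ZT2, 1.19, 0.77 and 0.45 at ZT10 and 0.53, 0.08 and 0.42 at ZT18, and neither the time of day (0.51, adjusted p = 0.217) nor the interaction (0.88, adjusted p = 0.196) passed. The difference at ZT10 at 30 weeks was -1.07 and not called with the slide as a fixed block (adjusted p = 0.0872). Without the acinar-rich arrays, which left a single jet-lagged mouse in that group, it was -1.27.

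**Figure D2:**
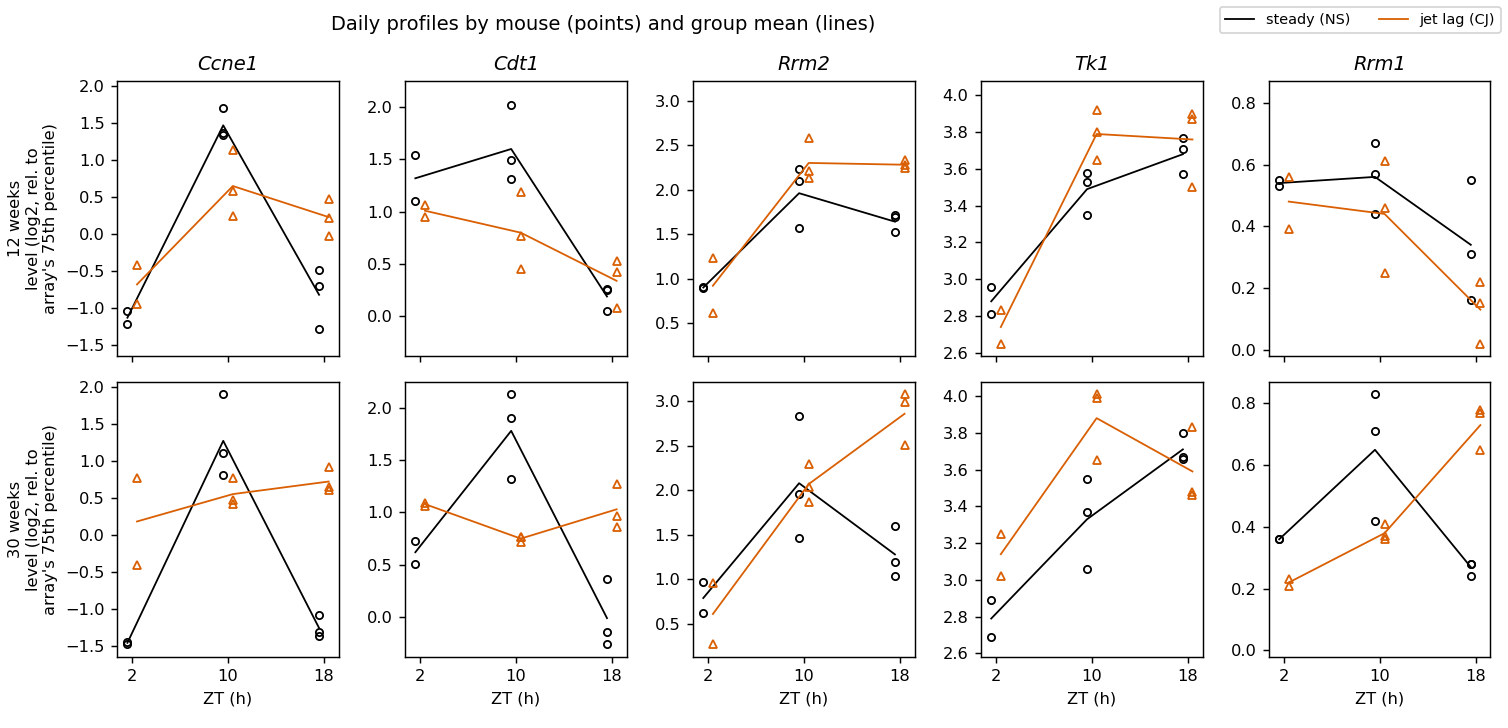
Levels of Ccne1, Cdt1, Rrm2, Tk1 and Rrm1 (columns; log2 relative to the 75th percentile of each array) against ZT in hours at 12 weeks (top) and 30 weeks (bottom), with 1 point per mouse and lines through group means; black circles are steady and orange triangles jet-lagged mice. Steady Ccne1 and Cdt1 have their highest mean at ZT10 at both ages, while at 30 weeks the jet-lagged Rrm2 and Rrm1 means are highest at ZT18.

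Of the 4 genes of deoxynucleotide supply, Rrm2 and Tk1 varied with time of day under jet lag at both ages, Rrm1 at 30 weeks and Tyms at neither. Both ribonucleotide reductase genes were highest at ZT18 in the older jet-lagged mice. Rrm2, the regulatory subunit of ribonucleotide reductase, was lowest at ZT2 in all 4 combinations of schedule and age. In steady mice at 30 weeks it was 0.97 and 0.62 at ZT2, 1.96, 1.46 and 2.83 at ZT10, and 1.60, 1.04 and 1.20 at ZT18 (range 1.26, adjusted p = 0.0164). In jet-lagged mice at 30 weeks it was 0.96 and 0.27 at ZT2, 2.04, 1.87 and 2.30 at ZT10, and 2.99, 3.08 and 2.51 at ZT18 (range 2.26, 4.80-fold, adjusted p = 0.000328). The jet-lagged ZT18 mice lay above all other jet-lagged mice of that age.

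At ZT18 at 30 weeks Rrm2 rose under jet lag by 1.47 ± 0.26 (2.78-fold, n = 3, adjusted p = 0.00227), without overlap, and this call was kept in every alternative run. The interaction of schedule and time was 1.66 (adjusted p = 0.0451) and was lost in 6 of 13 alternatives. Examples are the slide as a fixed block (1.53, adjusted p = 0.309) and the acinar and muscle covariates (1.62, adjusted p = 0.0553). The interaction was kept in 11 of the 32 fits without 1 mouse. At 12 weeks the steady levels were 0.91 and 0.90, then 2.10, 2.23 and 1.57, then 1.52, 1.71 and 1.69 from ZT2 to ZT18 (range 1.03, adjusted p = 0.0466), and the jet-lagged levels 0.61 and 1.23, then 2.21, 2.13 and 2.58, then 2.24, 2.28 and 2.33 (range 1.44, adjusted p = 0.00624). The steady call at 12 weeks was kept in 6 of 13 alternatives and in 10 of the 32 fits without 1 mouse, and without the ZT2 mice the steady ranges were 0.38 and 0.73 (adjusted p = 0.417 and 0.112). Rrm2 was higher in jet-lagged mice at ZT18 also at 12 weeks, by 0.72 ± 0.26, which did not pass (adjusted p = 0.151).

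Rrm1, the catalytic subunit, moved less. In jet-lagged mice at 30 weeks it was 0.21 and 0.23 at ZT2, 0.41, 0.36 and 0.37 at ZT10, and 0.78, 0.77 and 0.65 at ZT18 (range 0.48, adjusted p = 0.0333). Steady mice of that age had 0.36 and 0.36, then 0.83, 0.42 and 0.71, then 0.28, 0.28 and 0.24 (range 0.37, adjusted p = 0.0442). The steady call was kept in 9 of 13 alternatives and in 12 of the 32 fits without 1 mouse, and the jet-lag call in 6 of 13 alternatives. Rrm1 rose at ZT18 under jet lag by 0.44 ± 0.10 (n = 3, adjusted p = 0.0161), without overlap, and its interaction was 0.69 (adjusted p = 0.0243). With the slide as a fixed block these values were 0.40 and 0.64, neither of them called (adjusted p = 0.0909 and 0.202).

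Tk1, the thymidine kinase that salvages thymidine, was lowest at ZT2 everywhere and was called in all 4 combinations of schedule and age. In steady mice at 12 weeks it was 2.96 and 2.81 at ZT2, 3.53, 3.58 and 3.35 at ZT10, and 3.71, 3.77 and 3.57 at ZT18. The steady ranges were 0.75 at 12 weeks (adjusted p = 0.00426) and 0.99 at 30 weeks (adjusted p = 0.000536). Under jet lag they were 1.10 (adjusted p = 0.000176) and 0.69 (adjusted p = 0.0323). Without the ZT2 mice the steady ranges were 0.16 and 0.38 and the jet-lag ranges 0.0102 and 0.31, none of them called (adjusted p = 0.116 to 0.998). Without the acinar-rich arrays the steady range at 12 weeks was 0.54 and the jet-lag ranges were 0.99 and 0.86. These calls were lost, with a single mouse left at some of the times. Over the 3 times at 30 weeks Tk1 rose under jet lag by 0.27 ± 0.08 (1.21-fold, n = 8, adjusted p = 0.0488), a call close to the threshold that was lost in 8 of 13 alternatives and in all but 9 of the 32 fits without 1 mouse. Tyms, which makes thymidylate, was called in none of the 17 comparisons.

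The MCM genes, which encode the 6 subunits of the replicative helicase, had differences of opposite sign at ZT18 at the 2 ages, none of them called. Under jet lag at 12 weeks all 6 were lower at ZT18, by -0.96 ± 0.34 (Mcm5) to -0.37 ± 0.10 (Mcm7), and at 30 weeks all 6 were higher, by 0.17 ± 0.10 (Mcm7) to 0.74 ± 0.34 (Mcm5). None of these 12 differences passed on its own (adjusted p = 0.0527 to 0.522), and whether the 2 ages differ at ZT18 was not tested. In jet-lagged mice alone, Mcm3 varied with time of day at both ages, but it was highest at ZT2 at 12 weeks and at ZT18 at 30 weeks (ranges 0.79 and 1.01, adjusted p = 0.0225 and 0.00414).

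Jet-lagged Mcm3 levels at 12 weeks were 0.64 and 1.03 at ZT2, 0.76, 0.85 and 0.10 at ZT10, and 0.31, -0.24 and 0.01 at ZT18. At 30 weeks they were 0.22 and 0.18, then 0.46, 0.32 and 0.73, then 1.54, 1.36 and 0.89. All ZT18 mice at 30 weeks lay above all ZT18 mice at 12 weeks. Mcm5 at 30 weeks went from -1.04 and -1.58 at ZT2 over -1.25, -1.46 and -0.21 at ZT10 to 0.78, 0.30 and -0.15 at ZT18 (range 1.42, adjusted p = 0.038), and Mcm4 ranged over 0.76 (adjusted p = 0.0212). Mcm2 and Mcm6 had ranges of 0.95 and 1.01 with the highest mean at ZT18 and did not pass (adjusted p = 0.157 and 0.0586).

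Mcm7 was the MCM gene with a steady daily change. Steady mice at 12 weeks had Mcm7 levels of 2.34 and 2.33 at ZT2, 1.78, 1.90 and 1.49 at ZT10, and 2.12, 2.15 and 2.29 at ZT18, so ZT10 was lowest without overlap (range 0.68, adjusted p = 0.000521). At 30 weeks the range was 0.44 (adjusted p = 0.0386), again lowest at ZT10, a call kept in 6 of 13 alternatives. Without the ZT2 mice the 12-week range was 0.42 (adjusted p = 0.0184) and the 30-week range 0.17 (adjusted p = 0.426). The other 5 MCM genes were not called in steady mice at either age (ranges 0.23 to 0.72). Mcm7 thus had its low point at the hour at which Ccne1 and Cdt1 were high.

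**Figure D3:**
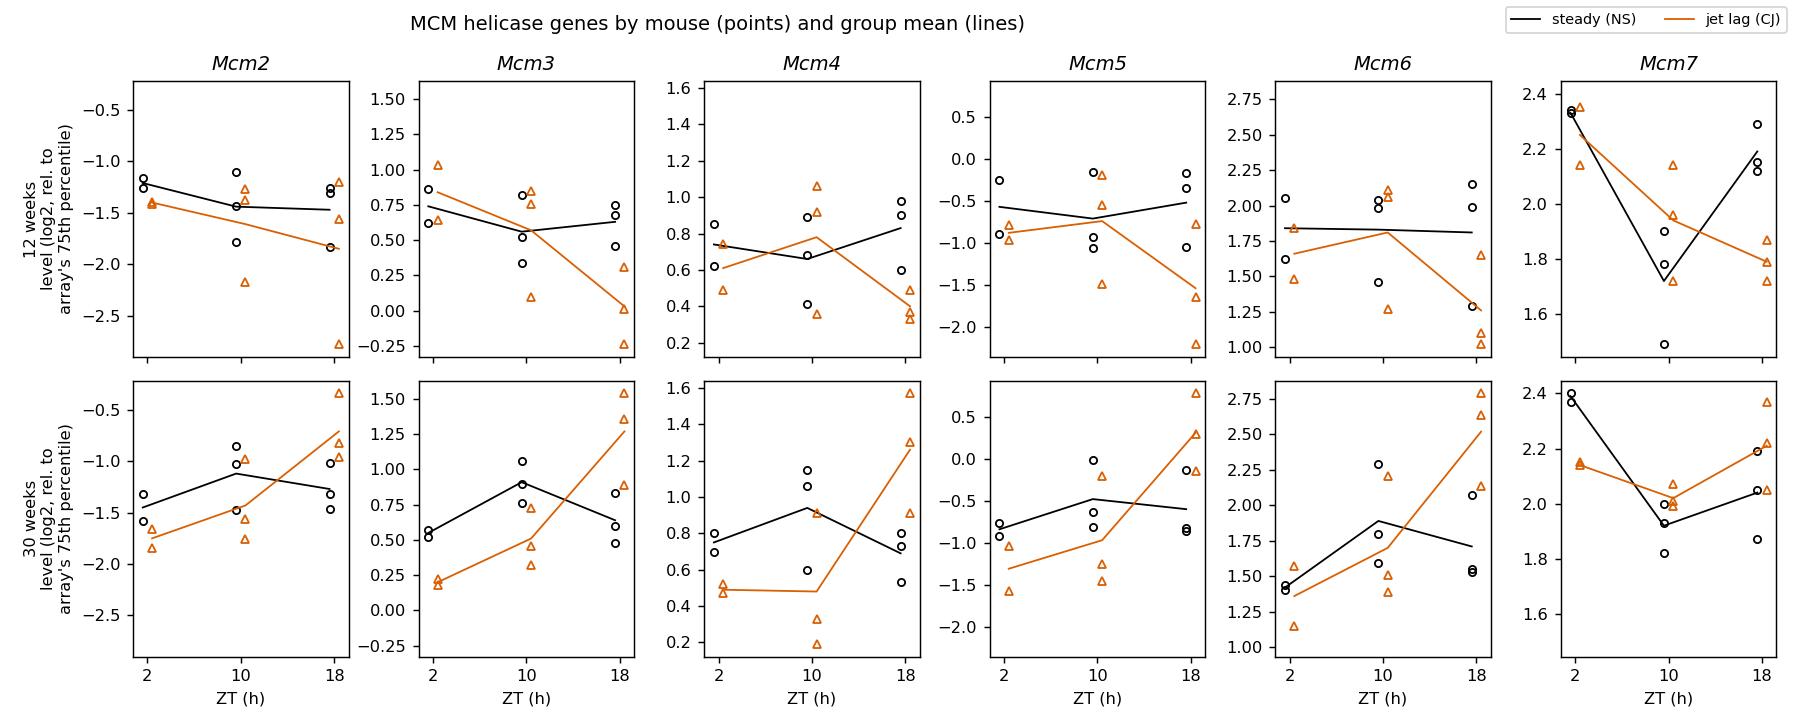
Levels of the 6 MCM genes (columns; log2 relative to the 75th percentile of each array) against ZT in hours at 12 weeks (top) and 30 weeks (bottom), with 1 point per mouse and lines through group means; black circles are steady and orange triangles jet-lagged mice. The jet-lagged ZT18 mean lies below the steady one at 12 weeks and above it at 30 weeks in all 6 genes, while steady Mcm7 is lowest at ZT10.

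In jet-lagged mice 6 of the 27 tested genes varied with time of day at 12 weeks (Ccne1, Rrm2, Tk1, Mcm3, Birc5 and Foxm1; 5.7% of all genes) and 8 at 30 weeks (Rrm2, Rrm1, Tk1, Mcm3, Mcm4, Mcm5, Pcna and Aurka; 3.62% of all genes), and Mcm3, Rrm2 and Tk1 were called at both ages. At 30 weeks 17 of the 21 genes measurable on all arrays had their highest mean at ZT18 (81.0%, against 40.7% of the 17543 genes). At 12 weeks 0 of 21 did (0.0%, against 33.1%), with 10 at ZT2 and 11 at ZT10. Most of these hours belong to genes without a called daily change. At 30 weeks 7 of the 8 called genes were highest at ZT18. All genes were read in the same 2 or 3 mice per time, so they are not separate observations of jet lag. Pcna, the sliding clamp of the fork, was 2.85 and 2.96 at ZT2, 3.06, 3.02 and 3.25 at ZT10, and 3.32, 3.30 and 3.31 at ZT18 at 30 weeks (range 0.38, adjusted p = 0.0299). The mitotic kinase Aurka was -1.92 and -2.15, then -2.14, -1.64 and -1.31, then -0.75, -0.93 and -0.72 (range 1.08, adjusted p = 0.014), with ZT18 above all other jet-lagged mice of that age.

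These jet-lag calls rest on few mice, with 2 per group at ZT2. Without the ZT2 mice 0 were called by limma at 12 weeks and 0 at 30 weeks. That fit compares only ZT10 with ZT18, so it cannot decide on a difference from ZT2. Muscle markers also differed between the times: their mean was -4.14 to -3.99 at ZT2, -3.50 to 3.40 at ZT10 and -0.68 to 3.30 at ZT18 in the 30-week jet-lagged group. With acinar and muscle covariates 1 of the 8 calls was made (Rrm2, range 2.13, adjusted p = 0.0165). The ranges of the others went from 1.01 to 0.88 (Mcm3), 0.76 to 0.64 (Mcm4), 1.42 to 1.23 (Mcm5) and 0.38 to 0.36 (Pcna). Those of Rrm1 went from 0.475 to 0.49, of Tk1 from 0.69 to 0.68 and of Aurka from 1.08 to 1.26. Macrophage markers (7 of 7 named genes on all arrays) had means of 3.62 to 3.69 at ZT2, 3.30 to 3.98 at ZT10 and 3.75 to 4.26 at ZT18 in these mice, and their part in the result was not tested. Erythroid markers were lowest at ZT2 (0.36 to 0.52, against 0.57 to 1.43 at the other times), with 3 of 7 tested markers called, and their part was not tested either.

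At 12 weeks the survivin gene Birc5, an inhibitor of apoptosis and a member of the chromosomal passenger complex, was -1.17 and -0.65 at ZT2, 0.29, 0.76 and -0.08 at ZT10, and 0.34, 0.01 and -0.04 at ZT18 in jet-lagged mice (range 1.25, adjusted p = 0.0172). Its other 2 probes, well above background on 17 and 10 arrays, gave 1.25 (adjusted p = 0.247) and 0.13 (adjusted p = 0.986), and the mean of all probes gave 0.82 (adjusted p = 0.322). Foxm1, which activates mitotic genes, was -2.06 and -0.81 at ZT2, -2.60, -2.47 and -1.83 at ZT10, and -3.07, -2.62 and -2.73 at ZT18 (range 1.35, adjusted p = 0.0238). The Foxm1 range fell to 0.76 without mouse 2 of ZT2, whose value stood apart, and was no longer called. The array of that mouse had the lowest share of probes well above background in the series (43.4%). With the normexp background correction the Foxm1 range was 0.52 and not called (adjusted p = 0.0763). Among steady mice Cenpa, the centromeric histone, was -0.63 and -0.63 at ZT2, -0.67, -0.45 and -0.59 at ZT10, and -1.44, -1.22 and -1.11 at ZT18 at 12 weeks (range 0.64, adjusted p = 0.0387), and ranged over 0.77 at 30 weeks (adjusted p = 0.0237). With acinar and muscle covariates Cenpa ranged over 0.42 and 0.59 (adjusted p = 0.359 and 0.191). Its call at 12 weeks was kept in 4 of 12 alternatives and in 22 of the 32 fits without 1 mouse. At 30 weeks these counts were 8 of 12 and 28 of 32.

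Over the mean of the 3 times, few of these genes differed between schedules. At 12 weeks 1 of 27 fell, Mki67 (2.29% of all genes fell), and at 30 weeks 2 rose, Ccne1 and Tk1 (1.77% of all genes rose). These are 1 and 2 genes, too few to set against those shares. Mki67, the common marker of proliferating cells, had at 12 weeks a level of lowest -1.24, median -0.97 and highest -0.39 over the 8 steady mice, and of lowest -2.54, median -1.52 and highest -0.64 over the 8 jet-lagged mice. Mki67 fell by 0.73 ± 0.19 on the log2 scale (n = 8, adjusted p = 0.0348), with overlapping groups. Another probe of Mki67, also well above background on all 32 arrays, gave -0.67 and did not pass (adjusted p = 0.185), and the call was lost in 6 of 12 alternatives. Cdc20, the activator of the anaphase-promoting complex, gave -0.75 ± 0.22 (adjusted p = 0.054) and Ccna2 -0.67 ± 0.22 (adjusted p = 0.089).

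**Figure D4:**
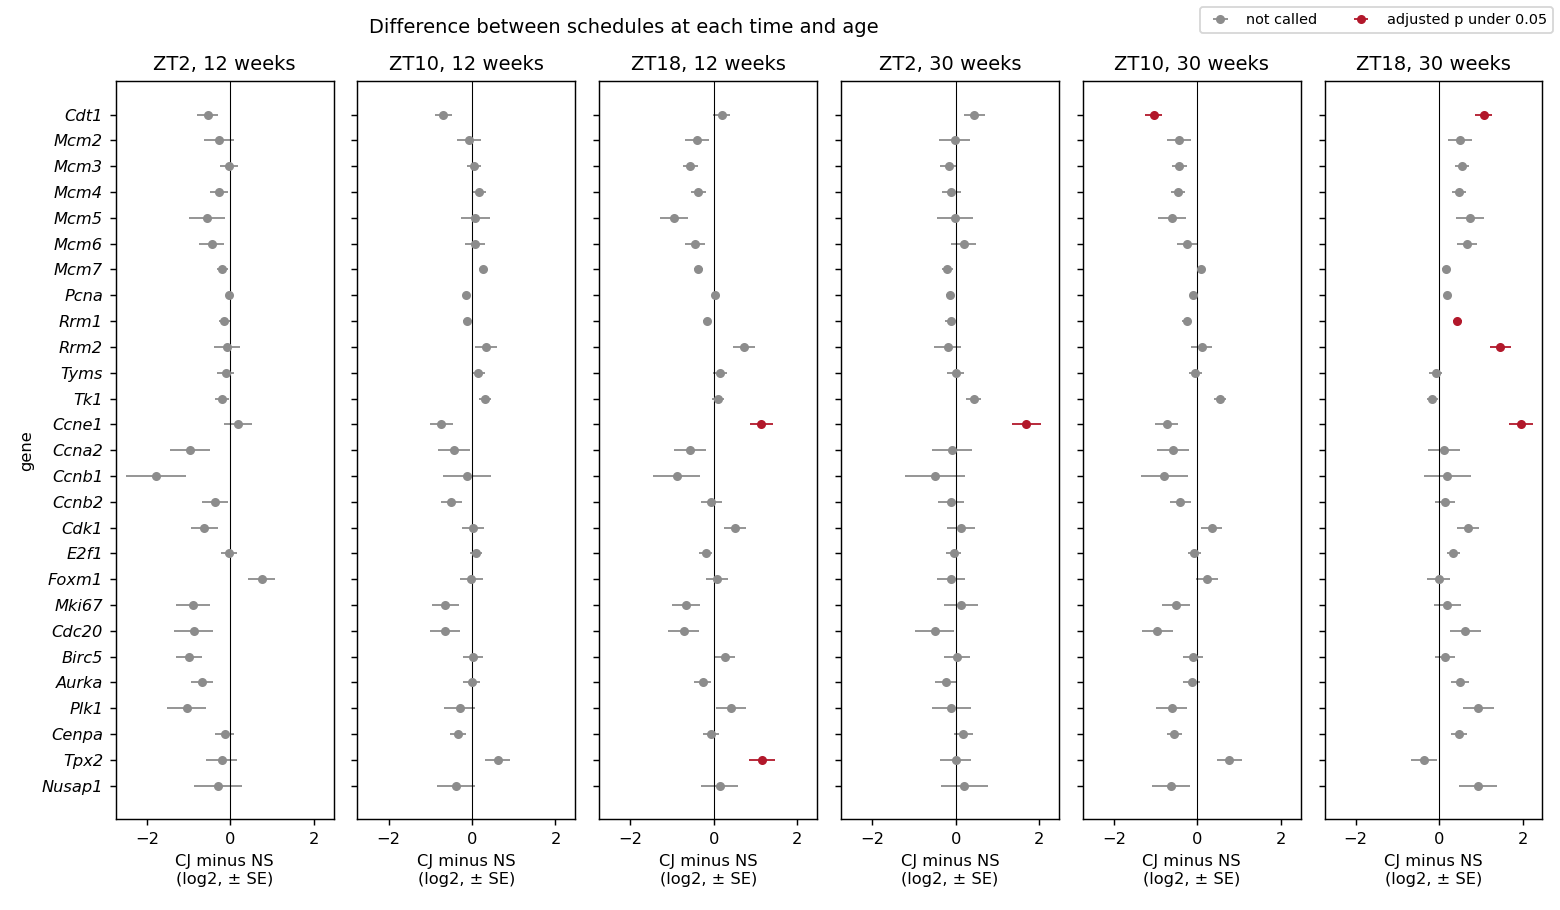
Difference between jet-lagged and steady mice (log2, points with SE bars) for the 27 tested genes (rows) at each time of day and age (panels), with called genes in red and others in grey. The 4 red points at ZT18 at 30 weeks are Cdt1, Rrm1, Rrm2 and Ccne1, and 0 points are red at ZT2 and ZT10 at 12 weeks.

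Among single times, ZT18 at 30 weeks had the most calls. There 4 of 27 genes rose under jet lag (Ccne1, Rrm2, Cdt1 and Rrm1, where 1.7% of all genes rose) and 0 fell. The median difference of the 27 tested genes was 0.47, against -0.01 over all genes tested. The genes were chosen with earlier results of these arrays known, which limits setting these values against all genes. Acinar and muscle means overlapped between the schedules in this comparison (-3.53 to -0.86 and 0.55 to 2.12 in steady, -3.32 to 3.58 and -0.68 to 3.30 in jet-lagged mice), and 4 genes were called also with both as covariates and without the acinar-rich arrays. Macrophage means did not overlap (3.08 to 3.69 in steady and 3.75 to 4.26 in jet-lagged mice), and their part in the result was not tested. At 30 weeks 1 gene rose at ZT2 (Ccne1; 0.441% of all genes rose) and 1 fell at ZT10 (Cdt1; 0.541% of all genes fell).

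At ZT18 at 12 weeks 2 of 27 rose, Ccne1 and Tpx2 (0.943% of all genes rose). Tpx2 was -2.63, -3.30 and -3.90 in steady and -2.17, -1.79 and -2.01 in jet-lagged mice, a difference of 1.16 ± 0.31 (n = 3, adjusted p = 0.0424) that did not overlap. In 1 steady mouse of this group Tpx2 was not well above background, and with the normexp background correction the difference was 0.22 (adjusted p = 0.518). At 12 weeks 0 of 27 were called by limma at ZT2 (0.255% of all genes) and 0 at ZT10 (1.71% of all genes). At unadjusted p under 0.05 there were 7 of 27 at ZT2, against 2692 of 23109 genes. At ZT10 there were 4 of 27, against 3902 of 23109 genes.

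Schedule and time of day interacted for 1 of 27 genes at 12 weeks (Ccne1; 1.9% of all genes) and for 4 at 30 weeks (Ccne1, Cdt1, Rrm1 and Rrm2; 1.97% of all genes). For all 4 at 30 weeks the jet-lagged minus steady difference was highest at ZT18. The MCM interactions at 30 weeks, 0.36 to 1.36, did not pass (adjusted p = 0.072 to 0.508).

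None of these genes was called for age by the limma test over the 3 times. In steady mice 0 of 27 were called (0.9% of all genes) and in jet-lagged mice 0 (5.31% of all genes). For the difference of schedule effects between ages 0 were called (0.00865% of all genes). The lack of a call does not show that a gene stayed the same. The age difference furthest from 0 was in Nusap1, -0.81 ± 0.27 in steady mice (adjusted p = 0.234). For Ccne1 the schedule effect was 0.78 ± 0.23 larger at 30 weeks (adjusted p = 0.157). The 11 tested genes called in none of the 17 comparisons were Ccna2, Ccnb1, Ccnb2, Cdc20, Cdk1, the E2F family member E2f1, Mcm2, Mcm6, Nusap1, Plk1 and Tyms. Most of them act from late DNA synthesis to mitosis.

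Other genes of the same pathway were followed in 4 lists. Among 20 tested genes of G1 cyclins, their kinases and the RB-E2F branch, on the steady schedule 5 (12 weeks) and 2 (30 weeks) varied with time of day, and under jet lag 1 and 0 did, where all genes gave 17.4%, 11.2%, 5.7% and 3.62%. Ccnd1, the cyclin D1 of early G1, had ranges of 1.09 and 1.34, highest at ZT10 (adjusted p = 0.00429 and 0.000713). At 30 weeks Ccnd1 was 3.52, 3.48 and 3.66 in steady and 2.35, 2.37 and 2.43 in jet-lagged mice at ZT10, and 1.99, 2.01 and 2.48 against 3.07, 3.28 and 2.72 at ZT18. It fell at ZT10 by 1.21 ± 0.22 on the log2 scale (adjusted p = 0.0143), rose at ZT18 by 0.86 ± 0.22 (adjusted p = 0.0286) and had an interaction of 2.07 (adjusted p = 0.00364), the same pair of directions as Cdt1.

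Of 22 tested CDK inhibitors and checkpoint genes, 9 and 5 varied in steady mice (17.4% and 11.2% of all genes) and 2 and 1 in jet-lagged mice (5.7% and 3.62% of all genes). Cdkn1a, which encodes the CDK inhibitor p21, ranged over 3.44 and 2.82 in steady mice (adjusted p = 0.000154 and 0.00128), highest at ZT18 and lowest at ZT10, the hour at which Ccne1 was highest. Wee1, the clock-controlled kinase that holds CDK1 inactive, was called in all 4 combinations and was always highest at ZT10, with steady ranges of 3.26 and 3.24 and jet-lag ranges of 2.57 and 1.61. Wee1 rose under jet lag over the 3 times at 30 weeks by 0.73 ± 0.17 (adjusted p = 0.0129), while Btg1, an antiproliferative gene, fell by 0.53 ± 0.08 on the log2 scale (adjusted p = 0.000345).

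Of 34 other tested DNA replication genes, 12 and 10 varied in steady mice (against the same 17.4% and 11.2%) and 6 and 4 in jet-lagged mice (against 5.7% and 3.62%). Gmnn, which encodes geminin, the inhibitor of CDT1, ranged over 1.29 and 1.13 in steady mice, highest at ZT10 and lowest at ZT18 (adjusted p = 9.43e-07 and 5.42e-06). At ZT18 at 30 weeks 5 of the 34 rose under jet lag (1.7% of all genes rose) and 0 fell. Among them were Mcm10, by 0.90 ± 0.19, the histone chaperone subunit Chaf1b, by 0.60 ± 0.11, Gmnn, by 0.58 ± 0.12, and Gins4, by 0.46 ± 0.09 (adjusted p = 0.00359 to 0.0109). The median of the 34 there was 0.24, against -0.01 over all genes tested.

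Of 29 other tested mitosis genes, 5 and 3 varied in steady mice, which is near the 17.4% and 11.2% of all genes, and 2 and 2 did under jet lag (5.7% and 3.62% of all genes). At ZT18 at 30 weeks 3 rose under jet lag (1.7% of all genes rose) and 0 fell, with a list median of 0.29. Ect2, which directs cytokinesis, rose by 1.55 ± 0.29 (adjusted p = 0.00395). The kinetochore gene Spc25 rose by 1.23 ± 0.23 (adjusted p = 0.00346) and the spindle checkpoint gene Mad2l1 by 0.64 ± 0.15 (adjusted p = 0.0198). Ect2 was -3.45, -2.70 and -2.90 in steady and -1.18, -1.64 and -1.69 in jet-lagged mice, without overlap. These lists, like the 34 genes, were chosen with earlier results of these arrays known.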

How the data were processed

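Liver RNA of 32 mice was measured on Agilent arrays (design 028005), 1 mouse per array. The deposited processed signal is an intensity, background-subtracted and detrended within the array per the file headers, which name Feature Extraction 11.0.1.1, whereas the submitters' processing notes name 9.1. A second deposited table holds the authors' log2 values after normalization and removal of a batch effect, per the series' design text, by methods not given in the sources used here. Its log2 scale was read from the values. It served as an alternative, and each of its 32 columns matched its own array best (smallest r 0.994).

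Here control and outlier spots were dropped, spots of a probe averaged, and values taken as log2 minus the array's 75th percentile (111.3 to 269.3). Probes had to be well above background on all arrays of 1 group (30487 probes, 23109 genes). limma 3.58.1 in R 4.3.3 fitted 12 group means for 17 comparisons, with the slide (8 of 4 arrays, each holding at least 4 groups) as a random block (correlation 0.254). Promoters, members, lists and named genes were chosen with earlier results of these data known. All members are named. From each other list at most 6 called genes per comparison, of largest change, could be named. The mean-signal column was not in the files, so the normexp alternative used the median signal. The pipeline was tested on simulated data. Precision is limited by the number of mice. The files pair no probes with symbols, so RefSeq identifiers were looked up in a RefSeq table (26582 of 55681 probes matched). The result of 1 gene of these lists is not reported here.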

Additional observations from a re-analysis of the deposited data

Results flagged for a closer look

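For 5 results the effect of the schedule itself differed between times of day by the interaction test. The range of the difference was 1.87 for Ccne1 at 12 weeks (adjusted p = 0.0344), where the called difference was at ZT18. At 30 weeks it was 2.70 for Ccne1 (adjusted p = 0.00144), 2.11 for Cdt1 (adjusted p = 0.0011), 1.66 for Rrm2 (adjusted p = 0.0451) and 0.69 for Rrm1 (adjusted p = 0.0243). The Rrm2 result was kept in only 11 of the 32 fits without 1 mouse. All adjusted p values are limma's over all genes. No cause was tested.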

How the results depend on the processing

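The 43 called results of members were refitted under 13 alternatives and without each of the 32 mice. None of the called differences between schedules reversed. Ranges over times of day and interactions have no sign, so a reversal could not be seen for them. Of the 43 results, 9 kept their call in every fit. Calls kept numbered 34 with normexp, 41 with quantile normalization, 28 with no filter on dim probes, 40 with a filter on 4 arrays, 21 with the slide as a fixed block, 37 with no slide block, 35 with the replicate block, 43 with a variance trend, 35 with the mean of all probes, 26 with acinar and muscle covariates, 17 without the acinar-rich arrays (chosen after seeing the data), 20 of 42 without the ZT2 mice and 35 of 36 in the authors' table. The cause was not tested.

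Counts of members called that moved by over 1.5 times follow, as main counts and then by alternative. The main counts were 1 and 2 for the schedule at 12 and 30 weeks, 0, 0 and 2 at ZT2, ZT10 and ZT18 at 12 weeks, 1, 1 and 4 at 30 weeks, 6 and 7 for steady and 6 and 8 for jet-lagged time of day, 1 and 4 for the interactions and 0 for age and age by schedule. Under normexp the schedule at 12 weeks gave 2, ZT10 at 12 weeks 2, ZT18 at 12 weeks 1, ZT10 at 30 weeks 2 and age in jet-lagged mice 2. Quantile normalization gave 1 at ZT18 at 12 weeks, 2 at ZT10 at 30 weeks and 2 for the 12-week interaction. Without the filter on dim probes the schedule gave 0 and 1, ZT18 at 12 weeks 0, jet-lagged time at 30 weeks 4 and the interactions 0 and 2, and with a filter on 4 arrays the schedule at 30 weeks gave 1. The slide as a fixed block gave 1 for the schedule at 30 weeks, 0 at ZT18 at 12 weeks, 0 at ZT2 and 0 at ZT10 at 30 weeks, 3 for each time of day at 30 weeks and 0 and 2 for the interactions. With no slide block the schedule gave 0 and 1 and ZT18 at 12 weeks 1. The variance trend gave 2 for the schedule at 12 weeks, 2 at ZT10 at 30 weeks and 2 for the 12-week interaction. The mean of all probes gave 0 and 0 for the schedule, 1 at ZT10 and 1 at ZT18 at 12 weeks, 0 at ZT2 at 30 weeks and 0 for the 12-week interaction. Acinar and muscle covariates gave 0 and 1 for the schedule, 0 at ZT18 at 12 weeks, 1 for jet-lagged time at 30 weeks, 0 for the 12-week interaction and 1 for age in jet-lagged mice. The authors' table gave 3 for the schedule at 12 weeks, 1 at ZT10 and 1 at ZT18 at 12 weeks, 2 at ZT10 at 30 weeks and 2 for the 12-week interaction. Without the ZT2 mice time of day gave 3 and 4 in steady and 0 and 0 in jet-lagged mice, and age in jet-lagged mice 1. Without the acinar-rich arrays the schedule gave 4 and 1, ZT2 at 12 weeks 5, ZT18 at 12 weeks 0, ZT2 and ZT10 at 30 weeks 0 and 0, jet-lagged time 1 and 3 and the 30-week interaction 1.

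Without 1 mouse the counts ran from 0 to 4 and 1 to 2 for the schedule at 12 and 30 weeks, 0 to 1, 0 to 1 and 0 to 4 at ZT2, ZT10 and ZT18 at 12 weeks, 0 to 1, 0 to 2 and 3 to 5 at 30 weeks, 3 to 7 and 4 to 7 for steady time, 3 to 6 and 2 to 9 for jet-lagged time, 0 to 2 and 2 to 5 for the interactions, and 0 to 1 for age in jet-lagged mice and for schedule by age.

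Mouse numbers did not pair the samples (mean correlation of deviations -0.0187 for the same and 0.00975 for other numbers, 3 of 32 arrays closest to their own number). With the replicate block, ZT10 at 30 weeks gave 2 and jet-lagged time at 30 weeks 5. With 2 mice per ZT2 group and mitotic probes near background, the arrays limit what can be seen there.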
